A study of Mus musculus with 12 samples.

Results

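The genes described are 41 genes of the cell cycle and of DNA replication, out of 55450 genes counted in cultured mouse alveolar type 2 (AT2) cells. They were chosen by symbol, as a list of well known proliferation genes, by a rule that uses no measured value, although earlier results of these data were known when the list was drawn up. All 41 were found among the counted genes and all 41 passed the filter on low counts, which kept 20612 genes. The study asked which transcripts in these surfactant-producing cells depend on AhR, the aryl hydrocarbon receptor, which turns on genes once it has bound a ligand, and on cockroach extract (CRE), an allergen source. RNA was sequenced from 4 groups of 3 libraries, AhRfl/fl cells with PBS, AhRfl/fl cells with CRE, Sftpc-Cre;AhRfl/fl cells with PBS and Sftpc-Cre;AhRfl/fl cells with CRE. Both genotypes carried the floxed Ahr alleles on a C57BL/6 background, and the second also carried Cre under the Sftpc promoter, which is active in AT2 cells, so that the receptor is deleted in the cells that have expressed this driver and not in other cells that came along. These are called KO cells below, after their genotype label. AT2 cells were enriched from digested lung by removing cells that bound antibodies to CD16/32, CD45, Ter119 or Sca-1 and by panning on IgG, plated on collagen I, and given 50 µg/ml CRE or PBS for 24 h. The labels do not say which libraries came from separate animals or cultures, so p-values measure only the spread between these libraries.

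A dividing cell passes through an ordered program. In G1, D-type and E-type cyclins with their kinases inactivate the retinoblastoma proteins, which frees E2F factors to switch on genes for DNA synthesis. CDC6 and CDT1 load the MCM helicase onto replication origins, CDC45 joins it to form the active helicase, PCNA clamps the polymerases to DNA, and ribonucleotide reductase and thymidylate synthase supply nucleotides. Later, MYBL2 and FOXM1 work with the MuvB complex at gene promoters to raise mitotic genes, CDK1 with cyclin B drives entry into mitosis, and CDC20 with the anaphase-promoting complex ends it. AT2 cells divide rarely in a healthy adult lung, and they act as progenitors of the alveolus after injury. Because these genes follow how many cells are in cycle, in bulk RNA fewer cells of a type and less RNA per cell cannot be told apart.

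Many of the promoters hold sequence elements by which such genes are commonly grouped. RefSeq promoter windows (GRCm38.p6, 250 bases before to 50 after the transcription start) were given for 32 of the 41 members, in 33 windows since Mcm7 had more than 1. Ccnd1, Ccnd2, Ccne2, Foxm1, Mcm4, Ccna2, Aurkb, Kif20a and Tpx2 had none. Searched on both strands were the E2F forms TTGGCGC or TTGCCGC or TTCGCGC or TTCCCGC, the cell cycle homology region (CHR) forms TTTGAA or TTCGAA, the NF-Y box CCAAT, and, as the core of the AhR response element, the letters GCGTG. The last 150 bases before the start are shown for 6 members of different roles whose values are described below, with E2F, CHR and NF-Y matches on either strand in capitals.
Cdc6: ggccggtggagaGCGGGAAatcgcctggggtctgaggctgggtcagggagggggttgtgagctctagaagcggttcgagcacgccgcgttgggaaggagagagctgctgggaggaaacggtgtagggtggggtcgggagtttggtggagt
Pcna: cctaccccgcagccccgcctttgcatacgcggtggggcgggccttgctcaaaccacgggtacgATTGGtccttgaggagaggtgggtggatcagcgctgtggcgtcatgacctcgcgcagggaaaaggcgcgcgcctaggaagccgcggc
Cdk1: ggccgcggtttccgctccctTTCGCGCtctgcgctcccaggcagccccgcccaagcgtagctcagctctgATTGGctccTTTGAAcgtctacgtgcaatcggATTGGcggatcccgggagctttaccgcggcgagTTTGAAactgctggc
Cdc20: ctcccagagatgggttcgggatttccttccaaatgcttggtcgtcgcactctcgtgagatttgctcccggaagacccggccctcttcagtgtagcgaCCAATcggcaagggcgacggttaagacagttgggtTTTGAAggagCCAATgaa
Top2a: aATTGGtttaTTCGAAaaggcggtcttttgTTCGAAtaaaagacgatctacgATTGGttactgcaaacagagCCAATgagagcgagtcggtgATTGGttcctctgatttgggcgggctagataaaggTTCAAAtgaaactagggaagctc
Mki67: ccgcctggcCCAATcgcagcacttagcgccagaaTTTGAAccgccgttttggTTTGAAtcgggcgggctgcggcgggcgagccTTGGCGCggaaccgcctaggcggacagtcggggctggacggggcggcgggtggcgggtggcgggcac
These are Cdc6 at chr11:98908001-98908150 on the plus strand, and, on the minus strand, Pcna at chr2:132253181-132253330, Cdk1 at chr10:69352913-69353062, Cdc20 at chr4:118437344-118437493, Top2a at chr11:99024190-99024339 and Mki67 at chr7:135716380-135716529. The licensing factor Cdc6 showed an E2F match and no CHR, whereas the mitotic genes Cdc20 and Top2a showed CHR and NF-Y matches and no E2F. Cdk1 and Mki67 held all of them, and Pcna showed an NF-Y match alone. In Cdc20 the CHR lay 18 to 13 bases before the start with an NF-Y box at 8 to 4 bases before it. Over all 33 member windows, an E2F form was in 13 (39.4%, against 9.57% of 32851 windows of all genes) and a CHR in 16 (48.5% against 19.2%). The NF-Y box was in 25 (75.8% against 37.4%), and every one of the 16 windows with a CHR also held an NF-Y box (48.5% against 7.53%). E2F forms were in 7 of 9 windows of the licensing and helicase genes and in 0 of 4 of the checkpoint and anaphase-promoting genes, while a CHR was in 3 and in 4 of them. The other roles were less clearly split. E2F forms were in 1 of 4 windows of the G1 cyclins and transcription factors, with none for E2f1 or Ccne1, and in 2 of 4 of the clamp and nucleotide genes. They were in 2 of 5 of the S, G2 and M kinases and cyclins and in 1 of 7 of the spindle genes. A CHR was in 1, 0, 4 and 4 of these windows. The AhR core was in 19 member windows (57.6% against 32.4%), among them Cdc6 and Cdc20. Member windows held 59.93% G and C on average against 53.80% for all windows, and a match describes letters, not a bound site.

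The 12 libraries held 68878065 to 80935797 counts each, and the count of a member ranged from 203 to 45145. Levels of 1 gene across libraries are given as CPM (counts scaled to a common library size after trimmed-mean normalisation), and levels of different genes are compared as FPKM, which also divides by gene length. The AhR targets followed the labels: Cyp1b1 was at 344, 404 and 404 CPM in AhRfl/fl cells with PBS and at 59.0, 31.7 and 43.3 in KO cells with PBS (edgeR, adjusted p = 0.000879), and 3 of 5 AhR targets were called lower in KO cells under either treatment. The whole-gene count of Ahr itself was at 42.9 to 45.1 CPM against 40.2 to 49.6 with PBS, and does not show the floxed exon. Of the defining AT2 markers 12 of 12 were detected, with a summed level from 4978 to 9836 CPM, so the defining genes of the label were present, but airway epithelial markers summed to 4009 to 8184 CPM (almost all Scgb1a1) and 6 leukocyte markers to 18.4 to 400.0 CPM. Libraries of 1 replicate number resembled each other across treatments within a genotype: their deviations from the group means correlated at 0.378 to 0.746 in AhRfl/fl and 0.377 to 0.588 in KO cells over 12997 genes. Numbers were therefore taken to pair the PBS and CRE libraries of a genotype, although the labels do not state a pairing.

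By length-corrected level the sliding clamp Pcna (mean 99.7 FPKM over the 12 libraries) and the G1 cyclin Ccnd1 (91.8 FPKM) stood far above the rest. The next were the helicase subunits Mcm6 (22.1 FPKM), Mcm7 (16.2), Mcm4 (15.6) and Mcm5 (15.1). Lowest were the mitotic kinesin Cenpe (1.16 FPKM), the late E2F repressor E2f8 (1.01) and the kinetochore protein Cenpf (0.813). The members' median was 4.86 FPKM against 2.16 over all genes tested, and 35 members lay above that value. The proliferation marker Mki67, used in histology to find cycling cells, was at 4.33 FPKM and ranged from 2.57 to 6.47 FPKM between libraries.

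Most of the 41 genes moved together from library to library, within groups as well as between them. Correlation with Mki67 over the 12 libraries had a median of 0.89 in the 40 other members, but was -0.19 for Cdt1 and 0.30 for Pcna. To follow the shared movement, each member's log2 CPM was set relative to its mean over the 12 libraries, and the median over members was taken per library. That relative level was -0.41, -0.47 and 0.03 in the 3 AhRfl/fl libraries with PBS and -0.42, -0.19 and 0.23 in those with CRE. In KO cells it was 0.19, 0.23 and -0.17 with PBS and 0.51, 0.36 and 0.05 with CRE. Replicate 3 was therefore the high one in AhRfl/fl cells and the low one in KO cells, and the KO replicate 3 with PBS lay below both replicate 3 libraries of AhRfl/fl cells. Of the members, 36 were highest in AhRfl/fl replicate 3 both with PBS and with CRE, which held for 14.2% of all genes, and 33 were lowest in KO replicate 3 under both treatments, against 16.6% of all genes. The summed CPM of the members was 1733 ± 190 (SD, n = 3) in AhRfl/fl cells with PBS, 1945 ± 269 with CRE, 2080 ± 163 in KO cells with PBS and 2356 ± 148 with CRE.

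**Figure D1:**
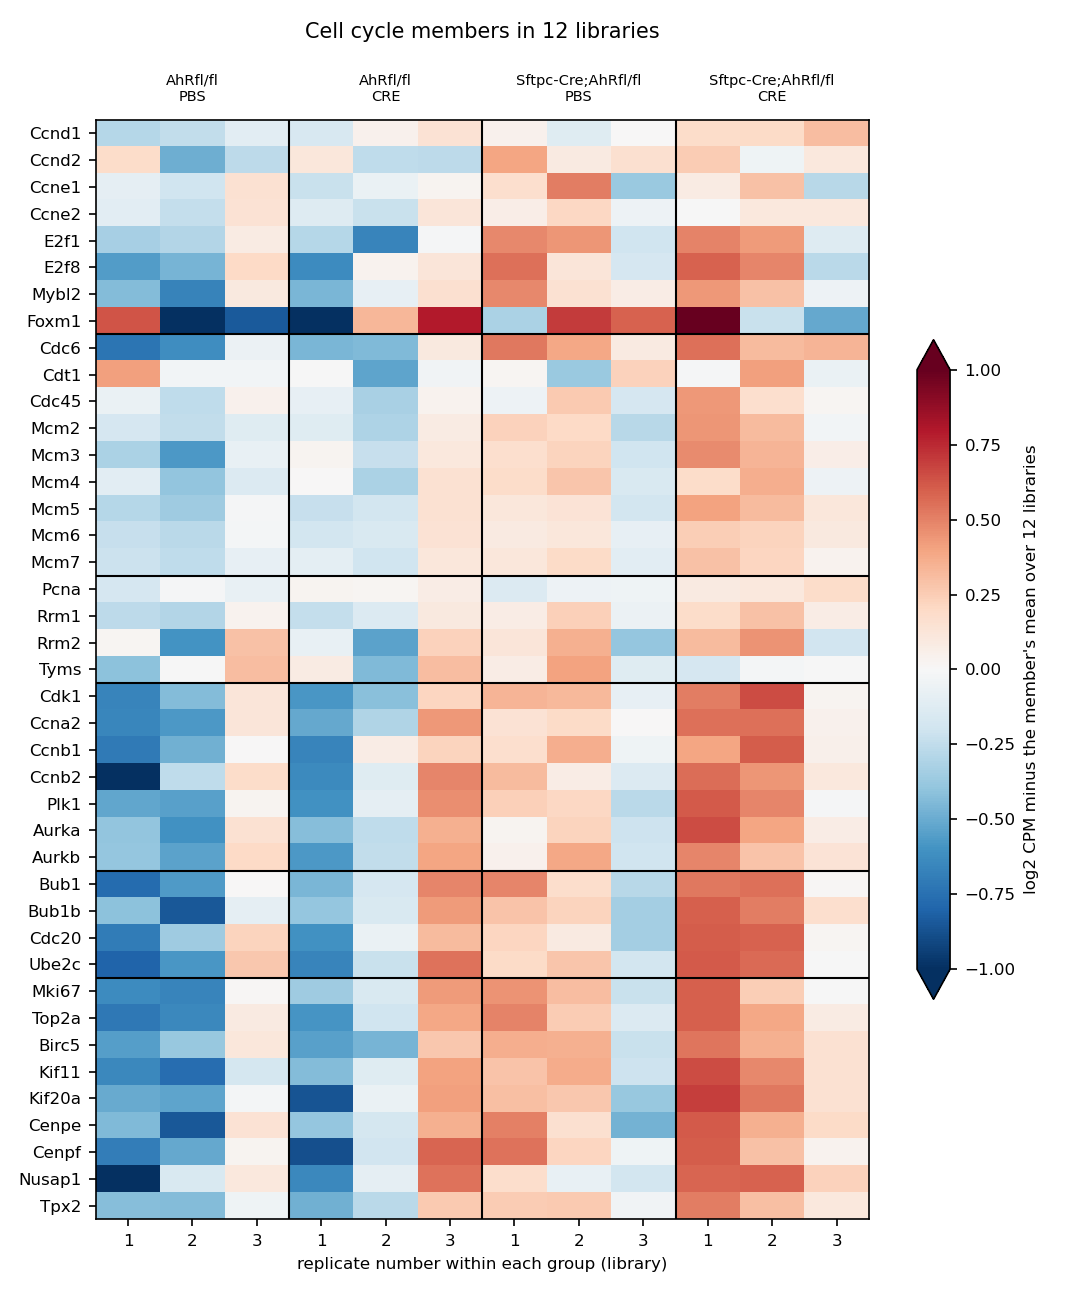
Level of each of the 41 members (rows, by role) in each of the 12 libraries (columns, by group), as log2 CPM minus the member's mean over all libraries, with the colour scale ending at -1 and 1. Most rows share 1 pattern, high in AhRfl/fl replicate 3 and low in KO replicate 3, while Ccnd2, Pcna, Cdt1, Ccnd1 and Foxm1 depart from it in more than 1 group.

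Marker genes of the cultured cells varied in the same libraries. The 12 AT2 markers summed to 9041, 9451 and 8310 CPM in AhRfl/fl cells with PBS and to 8024, 8102 and 7136 with CRE, lowest in replicate 3, where the members were highest. In KO cells they summed to 4978, 6962 and 9351 CPM with PBS and to 5168, 7032 and 9836 with CRE, highest in replicate 3, where the members were lowest. The 5 airway epithelial markers, none of them at 0 in all libraries, were highest in AhRfl/fl replicate 3 (7664 and 6165 CPM with PBS and CRE) and in KO replicate 1 (8184 and 6779 CPM), and Foxj1, the regulator of ciliated cells, was at 111.7 and 113.2 CPM in KO replicate 1 against 42.3 to 67.1 CPM in the other libraries. The 6 leukocyte markers followed another order, at 290.4 to 400.0 CPM in replicate 1 of every group and at 18.4 to 90.5 CPM elsewhere. Genes listed as markers of other cells were present too. The 5 listed for mesothelium (Msln, Upk3b, Wt1, Lrrn4 and Krt19) summed to 1602 to 2371 CPM. That sum was not split by gene, so it does not measure mesothelial cells. It was lowest in AhRfl/fl replicate 1 with CRE, where 4 epithelial genes (Epcam, Cdh1, Krt8 and Krt18) also had their lowest sum, 5351 CPM. The 8 of fibroblasts were highest in KO replicate 2, at 273.6 and 233.0 CPM with PBS and CRE, against 76.0 to 200.5 CPM in the other libraries. The part of these cell types in the members' levels was not tested.

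**Figure D2:**
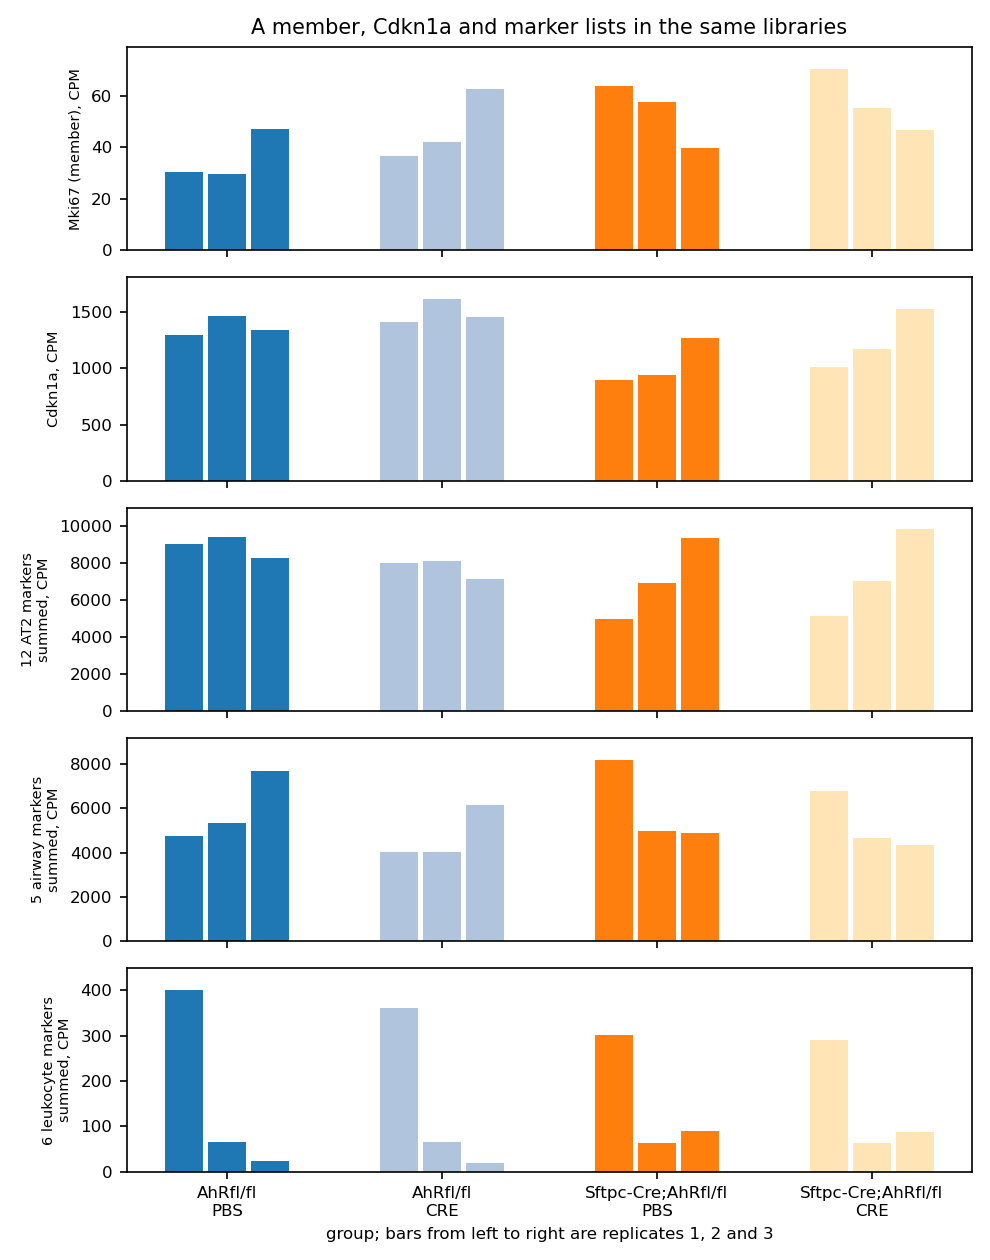
CPM of Mki67 and of the kinase inhibitor Cdkn1a, and summed CPM of 12 AT2, 5 airway and 6 leukocyte markers, as bars for each of the 12 libraries. Mki67 runs from 29.5 to 70.5 CPM, and the AT2 sum is lowest, at 4978 and 5168 CPM, in KO replicate 1, where Mki67 is highest.

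With CRE, most of the cell cycle genes were slightly higher than with PBS, and the size of the difference was similar in both genotypes. The median log2 fold change of the 41 members was 0.17 in AhRfl/fl cells and 0.19 in KO cells, against about 0.00 over all genes tested, with 35 and 36 members above 0. Averaged over genotypes it was 0.17, highest, at 0.30, in the 4 checkpoint and anaphase-promoting genes. With 1 unpaired library left out the median in AhRfl/fl cells ran from -0.02, without the CRE library of replicate 3, to 0.38, without the PBS library of replicate 3, and was 0.31 without CRE replicate 1 and 0.09 without PBS replicate 1 or 2. In KO cells it ran from 0.08 without PBS replicate 3 to 0.29 without CRE replicate 3, with 0.11 without CRE replicate 1. No member passed edgeR's quasi-likelihood test at a Benjamini-Hochberg adjusted p of 0.05 when all 12 libraries were treated as independent: the count was 0 of 41 in AhRfl/fl cells (0.233% of all genes were called), 0 in KO cells (0.262%) and 0 in the average over genotypes (1.1%). Limma called 0 in each, and DESeq2 called 0 (1.06% of the 32083 genes with a count), 0 (0.679%) and 2 (2.05%), the latter being Ccnd1 and Pcna. At an unadjusted p under 0.05 stood 1 member in AhRfl/fl cells (Ccnd1, against 9.36% of all genes), 2 in KO cells (Ccnd1 and Pcna, against 6.48%) and 3 in the average (Ccnd1, Mcm3 and Pcna, against 11.1%), each a smaller share of the members than of all genes. The rule of the study's methods, an unadjusted p under 0.05 in limma with an absolute log2 fold change above 0.5, held for 0 members in AhRfl/fl cells (2.4% of all genes met it as higher) and 0 in KO cells (1.84%). Groups did not overlap, with CRE higher, for Pcna alone in AhRfl/fl cells (8.82% of all genes) and for Ccnd1, Pcna and Nusap1 in KO cells (6.49%).

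Taking the numbers as pairs, each CRE library was also set against the PBS library of its own number and genotype. This pairing is not in the labels and was inferred from the correlations of these same libraries. All results in pairs or under the block, here and below, rest on it. In those 6 pairs CRE was higher in 197 of 246 member comparisons (80.1%), where over all genes the share was 49.6%. Most members move together, so these comparisons are not independent of each other and come from only 6 pairs. CRE was higher in 6 of 6 pairs for 20 members (7.57% of all genes), in 5 or 6 pairs for 29 members (18.9%), and in 0 pairs for no member. The pair medians were 0.05, 0.23 and 0.20 log2 units in AhRfl/fl cells and 0.18, 0.12 and 0.20 in KO cells, so the smallest shift was in AhRfl/fl pair 1. With the replicate number as a block within genotype in the same edgeR test, 12 members rose with CRE in the average over genotypes and none fell (3.47% of all genes were called higher). They were Ccnd1, Mcm3, Mcm5, Pcna, Ccnb2, Bub1, Cdc20, Ube2c, Mki67, Top2a, Kif11 and Nusap1. Within a genotype the block gave 1 member in AhRfl/fl cells, Mki67 (3.63% of all genes were called in either direction), and 1 in KO cells, Cdc20 (2.13%). Leaving out both libraries of 1 number of 1 genotype, an alternative chosen after the data were seen, left 1 to 9 members of 41 called higher, where 1.69% to 2.48% of all genes were. The count was 3 without AhRfl/fl number 2 and 2 without AhRfl/fl number 3, and in KO cells it was 2, 3 and 1 without numbers 1, 2 and 3. Under the same block Sftpc, the AT2 surfactant gene, fell by 0.09 ± 0.02 log2 units (edgeR, adjusted p = 0.0157) and the club cell gene Scgb1a1 fell by 0.25 ± 0.03 (adjusted p = 0.00482). The AT2 markers as a list did not fall in both genotypes. Their sum went from 9041, 9451 and 8310 to 8024, 8102 and 7136 CPM with CRE in AhRfl/fl cells. In KO cells it went up, from 4978, 6962 and 9351 to 5168, 7032 and 9836 CPM. The part of these genes in the members' rise was not tested. The 12 alveolar macrophage markers, none of them at 0 in all libraries, summed to 186 to 427 CPM with PBS and 452 to 581 CPM with CRE in AhRfl/fl cells, and to 182 to 344 and 380.5 to 425 CPM in KO cells. The groups did not overlap in either genotype, and 1 marker of the 12, Plet1, was called higher with CRE in each (edgeR without the block). Without Plet1, left out after the data were seen, the other 11 summed to 53.8 to 293 CPM with PBS and 49.9 to 248.8 CPM with CRE in AhRfl/fl cells, and to 74.2 to 229 and 66.2 to 182 CPM in KO cells. That sum was higher with CRE in 0 of 6 pairs.

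**Figure D3:**
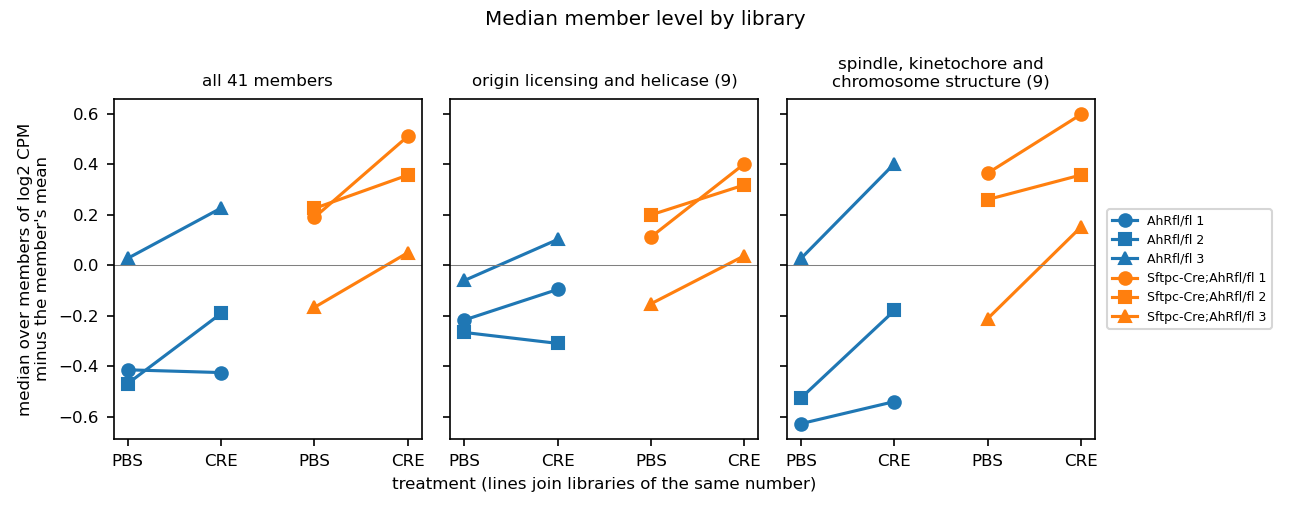
Median relative level (log2 CPM minus each member's mean over libraries) per library for all 41 members, the 9 licensing and helicase genes and the 9 spindle, kinetochore and chromosome genes, with lines joining the PBS and CRE library of 1 number in each genotype. Most lines climb from PBS to CRE, and the line of number 3 lies above the others in AhRfl/fl cells and below them in KO cells.

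Between genotypes the members leaned further to 1 side, with a wide spread between libraries. KO cells had higher fitted levels than AhRfl/fl cells for 40 of 41 members with PBS (median log2 fold change 0.38) and for 40 of 41 with CRE (0.37), with the medians of all genes at about 0.00. Cdt1 with PBS and Tyms with CRE were the exceptions. These comparisons share libraries with the CRE comparisons above. edgeR called 0 members with PBS (0.15% of all genes were called) and 0 with CRE (0.17%), and limma called 0 in both. DESeq2 called 1 with PBS, Cdc6 (0.686% of the genes with a count), and 0 with CRE (0.496%). Unadjusted p-values under 0.05 were found for 8 members with PBS (8.37% of all genes) and 10 with CRE (5.95%), all on the side of higher levels in KO cells. Only Cdc6 and Tpx2 with PBS (6.6% of all genes did not overlap in this direction) and Ccnd1, Cdc6 and Pcna with CRE (5.56%) had groups that did not overlap. By the rule of the study's methods 6 members were higher with PBS, Mybl2, Cdc6, Ccnb1, Mki67, Top2a and Kif11 (2.34% of all genes), and 4 with CRE, E2f1, Cdc6, Cdk1 and Birc5 (1.72%).

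These counts turned on single libraries. Without AhRfl/fl replicate 3, the members that met the study's rule rose in number to 16 with PBS (2.93% of all genes met it as higher in that fit) and 20 with CRE (2.53%), and without KO replicate 3 to 14 (2.44%) and 12 (2.03%). Without AhRfl/fl replicate 1 the counts were 2 and 1, without AhRfl/fl replicate 2 they were 1 and 1, without KO replicate 1 they were 1 and 1, and without KO replicate 2 they were 2 and 1, where between 1.13% and 2.84% of all genes met the rule as higher. The members' median log2 fold change stayed above 0 in each of these fits, between 0.28 and 0.56 with PBS and between 0.24 and 0.68 with CRE, the highest being without AhRfl/fl replicate 3 under CRE.

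Averaged over treatments, all 41 members had higher fitted levels in KO cells, by a median of 0.39 on the log2 scale, and the spindle, kinetochore and chromosome genes had the largest median of any role, at 0.49. edgeR called 0 of them (0.631% of all genes were called), limma 0, and DESeq2 3, Cdc6, Kif11 and Tpx2 (1.59% of the genes with a count). Unadjusted p-values under 0.05 were reached by 23 members (9.93% of all genes). This fit treats the PBS and CRE libraries of 1 number as independent, although they resemble each other. With both libraries of a number summed, which leaves 3 sums against 3 and was chosen after the data were seen, 0 members were called and 8 had an unadjusted p under 0.05 (5.22% of all genes). Leaving out both libraries of 1 number moved the 23 to 9 and 6 without AhRfl/fl numbers 1 and 2 (12.8% and 7.66% of all genes), and to 8 and 7 without KO numbers 1 and 2 (7.56% and 10.6%). Without AhRfl/fl number 3 it was 33 (9.45% of all genes), and 2 members were called (0.329%). Over all 6 such fits, which include that without KO number 3, it lay between 6 and 33, and 0 to 2 members were called.

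**Figure D4:**
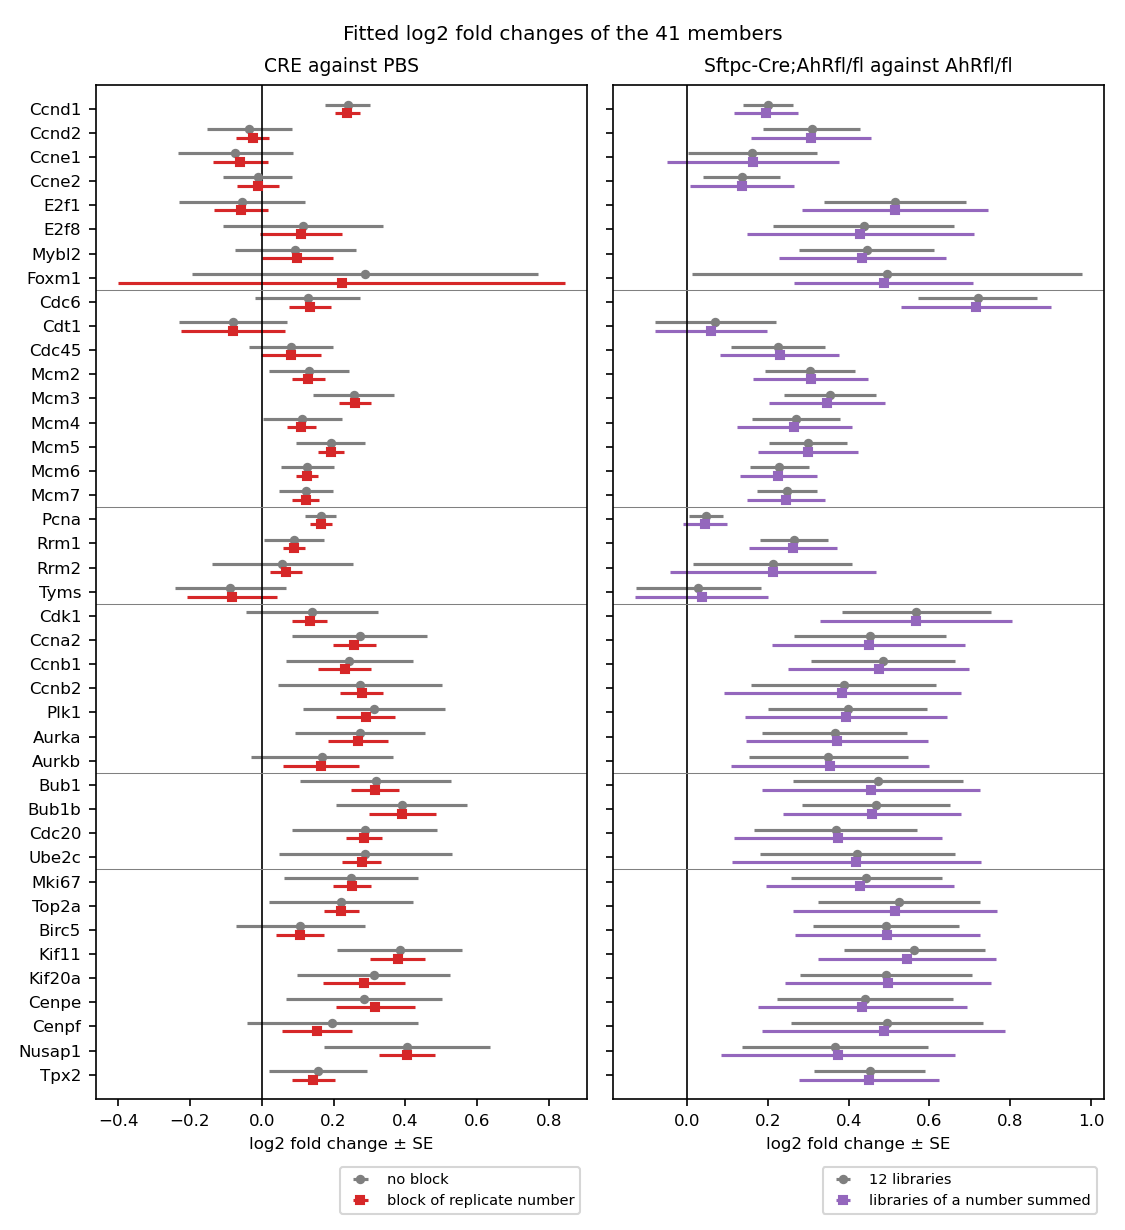
Log2 fold change with its standard error for each of the 41 members, on the left for CRE against PBS averaged over genotypes without and with the replicate block, on the right for KO against AhRfl/fl cells averaged over treatments with 12 libraries and with the libraries of a number summed. The block narrows the bars of nearly every member on the left, Foxm1 excepted, and summing widens most of those on the right.

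The response to CRE was not shown to differ between genotypes for any member. The difference of the CRE response had a median of 0.00 over members, with 23 above and 18 below 0. edgeR, limma and DESeq2 called 0 members (0% of all genes were called by edgeR and 0.0655% of those with a count by DESeq2). An unadjusted p under 0.05 was reached by 0 members (3.7% of all genes). The replicate block also gave 0. At the ends stood Cdt1, with a difference of 0.45 ± 0.30 log2 units (SE, adjusted p = 1.00 by edgeR), and Foxm1 with -0.31 ± 0.96 (adjusted p = 1.00). For Mki67 the difference was -0.31 ± 0.37 (adjusted p = 1.00).

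Among the 8 G1 cyclins and transcription factors, 1 rose with CRE under the block. Ccnd1, cyclin D1, which couples growth signals to G1, was at 392, 402 and 444 CPM in AhRfl/fl cells with PBS and 428, 492 and 529 with CRE, and in KO cells at 492, 439 and 480 with PBS and 542, 547 and 592 with CRE. Every CRE library was above the PBS library of its number, and with CRE the KO group lay wholly above the AhRfl/fl group. The average response to CRE was 0.24 ± 0.04 log2 units with the block (SE, adjusted p = 0.0107 by edgeR) and 0.24 ± 0.06 without it (adjusted p = 0.124). Cyclin D2 and the E-type cyclins did not share this: Ccnd2, Ccne1 and Ccne2 were each higher with CRE in 2 of 6 pairs, and their average responses lay between -0.07 and -0.01. E2f1, the activating E2F, stood at 7.64, 7.85 and 10.2 CPM in AhRfl/fl cells with PBS, 7.88, 6.07 and 9.56 with CRE, 13.4, 13.1 and 8.38 in KO cells with PBS, and 13.6, 12.9 and 8.80 with CRE. KO replicates 1 and 2 were above all AhRfl/fl libraries and replicate 3 fell among them, and with CRE the genotypes differed by 0.59 ± 0.25 (adjusted p = 0.826 by edgeR). For Mybl2, the partner of MuvB at mitotic promoters, the levels were 6.76, 5.74 and 9.79 CPM, then 6.63, 8.65 and 10.2 with CRE, and in KO cells 12.7, 10.2 and 9.63 with PBS, then 12.4, 11.2 and 8.84 with CRE. The genotypes differed by 0.54 ± 0.24 with PBS (adjusted p = 0.573 by edgeR), and AhRfl/fl replicate 3 overlapped the KO group. E2f8, which represses E2F targets late in S phase, differed by 0.43 ± 0.32 with PBS. Foxm1 was erratic, at 11.8, 3.02 and 4.24 CPM and 3.15, 9.58 and 13.3 CPM in AhRfl/fl cells with PBS and CRE, and at 6.12, 12.4 and 11.5 CPM and 20.9, 6.53 and 5.35 CPM in KO cells. Its levels followed neither the groups nor the other members, and its gene overlaps Tex52 and Gm44596 on the same strand.

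The 9 licensing and helicase genes held the member with the largest genotype difference. Cdc6 (ENSMUSG00000017499, chr11:98907801-98923940 on GRCm38), which loads MCM onto origins, was at 12.1, 13.1 and 19.3 CPM in AhRfl/fl cells with PBS and 14.7, 14.8 and 21.5 with CRE. In KO cells it was at 29.0, 26.4 and 21.4 CPM with PBS and at 29.6, 25.1 and 25.5 with CRE, so the groups did not overlap under either treatment. The log2 fold change was 0.79 ± 0.21 with PBS (adjusted p = 0.307 by edgeR), 0.65 ± 0.21 with CRE (adjusted p = 0.649), 0.72 ± 0.15 over both (adjusted p = 0.0724) and 0.71 ± 0.19 with summed libraries (adjusted p = 0.642), which did not pass the test. CRE moved it little, by 0.14 ± 0.06 with the block (adjusted p = 0.257). Its licensing partner Cdt1 behaved otherwise, with 22.2, 16.5 and 16.5 CPM, then 16.7, 11.6 and 16.3 with CRE in AhRfl/fl cells, and 17.0, 12.9 and 19.6 CPM, then 16.6, 22.2 and 15.96 with CRE in KO cells. CRE was higher in 1 of 6 pairs, and its log2 fold changes were -0.30 ± 0.21 for CRE in AhRfl/fl cells (adjusted p = 0.735 by edgeR) and -0.15 ± 0.21 for the genotypes with PBS (adjusted p = 0.934), the lowest of the members in both. The helicase subunits Mcm3 to Mcm7 were each higher with CRE in 6 of 6 pairs, and 2 of the 6 MCM genes passed the blocked test. Mcm3 was at 39.2, 32.9 and 46.6 CPM in AhRfl/fl cells with PBS, 49.9, 41.8 and 52.6 with CRE, 54.9, 57.0 and 42.5 in KO cells with PBS, and 68.0, 62.0 and 51.1 with CRE, a rise of 0.26 ± 0.04 (adjusted p = 0.0189 by edgeR with the block). Mcm5 went from 54.3, 51.8 and 65.8 to 56.5, 58.4 and 73.5 CPM, and in KO cells from 71.6, 73.0 and 58.3 to 87.5, 82.6 and 71.6 CPM, a rise of 0.19 ± 0.04 (adjusted p = 0.025). In both genes the PBS and CRE groups overlapped, and every pair was higher with CRE. Between genotypes Mcm2 to Mcm7 had log2 fold changes of 0.23 to 0.35 over both treatments, with 7 of the 9 licensing genes at an unadjusted p under 0.05 in the fit of 12 libraries and none called. Cdc45, the helicase activator, was higher with CRE in 2 of 6 pairs.

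Of the 4 clamp and nucleotide supply genes, Pcna alone was called higher with CRE under the block. It was at 237, 264 and 252 CPM in AhRfl/fl cells with PBS and 271, 269 and 280 with CRE, and in KO cells at 242, 257 and 258 with PBS and 283, 286 and 302 with CRE. The treatment groups did not overlap in either genotype, the levels did not split by replicate number, and the step was small, 0.16 ± 0.03 log2 units with the block (adjusted p = 0.0267 by edgeR) and 0.16 ± 0.04 without it (adjusted p = 0.115). With PBS the genotypes differed in Pcna by 0.01 ± 0.06 (adjusted p = 0.998), against the members' median of 0.38. Rrm1, the large subunit of ribonucleotide reductase, was higher with CRE in 6 of 6 pairs by 0.09 ± 0.03 with the block (adjusted p = 0.157), and the small subunit Rrm2 in 4 of 6 pairs. Tyms, thymidylate synthase, was at 18.4, 24.4 and 30.2 CPM in AhRfl/fl cells with PBS, 25.9, 18.0 and 30.3 with CRE, 25.6, 32.3 and 22.4 in KO cells with PBS, and 21.7, 24.1 and 24.3 with CRE. No group stood apart. Its log2 fold change was -0.20 ± 0.22 for CRE in KO cells, -0.08 ± 0.22 for the genotypes with CRE (both with an adjusted p = 1.00 by edgeR), -0.09 ± 0.16 for CRE over both genotypes (adjusted p = 0.929) and 0.03 ± 0.16 for the genotypes over both treatments (adjusted p = 0.986), the smallest of the 41.

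The 7 kinases and cyclins of S, G2 and M phase were higher in KO than in AhRfl/fl cells under both treatments and higher with CRE in both genotypes, by fitted level, and 1 passed the blocked test for CRE. Cdk1, the kinase that starts mitosis, was at 15.7, 18.4 and 27.0 CPM in AhRfl/fl cells with PBS, 16.6, 18.6 and 28.8 with CRE, 31.4, 31.0 and 23.5 in KO cells with PBS, and 35.4, 39.0 and 25.3 with CRE. The genotypes crossed at replicate 3, and the difference with CRE was 0.64 ± 0.26 (adjusted p = 0.802 by edgeR). Ccnb1, cyclin B1, was at 11.9, 13.9 and 19.4 CPM, then 12.3, 20.4 and 22.6 with CRE in AhRfl/fl cells, and 21.7, 24.8 and 18.8 CPM, then 25.4, 29.5 and 20.03 with CRE in KO cells. With PBS the genotypes differed by 0.53 ± 0.25 (adjusted p = 0.612), again with replicate 3 of both genotypes side by side. Ccnb2, cyclin B2, rose with CRE from 6.50, 11.1 and 15.0 to 8.46, 12.1 and 18.5 CPM in AhRfl/fl cells and from 16.4, 13.9 and 12.0 to 19.4, 17.9 and 14.2 CPM in KO cells, by 0.28 ± 0.06 (adjusted p = 0.0404 by edgeR with the block). Every pair rose, although the 3 PBS levels in AhRfl/fl cells spanned a wider range than the response. Ccna2, Plk1, Aurka and Aurkb, a cyclin and mitotic kinases, had blocked responses of 0.26, 0.29, 0.27 and 0.16 with none called.

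Of the 4 spindle checkpoint and anaphase-promoting genes, 3 rose with CRE under the block. Bub1, a checkpoint kinase at kinetochores, went from 7.39, 8.52 and 12.7 to 9.19, 11.3 and 17.7 CPM in AhRfl/fl cells and from 17.8, 14.3 and 10.4 to 18.2, 18.5 and 12.7 CPM in KO cells, by 0.32 ± 0.07 (adjusted p = 0.0387 by edgeR with the block). Cdc20, the activator of the anaphase-promoting complex, was at 16.6, 21.1 and 31.4 CPM with PBS and 17.7, 25.8 and 33.5 with CRE in AhRfl/fl cells, and at 31.4, 28.8 and 21.3 with PBS and 41.1, 40.6 and 27.3 with CRE in KO cells. Its rise was 0.41 ± 0.07 within KO cells (adjusted p = 0.0355) and 0.29 ± 0.05 on average (adjusted p = 0.0193), and in AhRfl/fl cells 0.16 ± 0.07 did not pass (adjusted p = 0.289). Ube2c, the ubiquitin-conjugating enzyme of that complex, went from 12.7, 14.8 and 26.8 to 14.0, 19.1 and 32.4 CPM and in KO cells from 25.3, 26.9 and 19.5 to 33.9, 32.8 and 22.2 CPM, by 0.28 ± 0.06 (adjusted p = 0.0317). All 3 climbed in 6 of 6 pairs, and each had AhRfl/fl replicate 3 and KO replicates 1 and 2 as its high libraries. Bub1b, the checkpoint partner BUBR1, was also higher in 6 of 6 pairs, by 0.39 ± 0.09 (adjusted p = 0.056), and did not pass. Cdc20 has the CHR and NF-Y letters shown above close to its start, and all 4 of these genes held both.

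The 9 spindle, kinetochore and chromosome genes gave 4 that rose with CRE under the block and the largest median difference between genotypes. Mki67 (ENSMUSG00000031004, chr7:135689784-135716361 on GRCm38) was at 30.2, 29.5 and 46.9 CPM in AhRfl/fl cells with PBS and 36.5, 41.9 and 62.6 with CRE, and in KO cells at 63.8, 57.7 and 39.9 with PBS and 70.5, 55.3 and 46.6 with CRE. All 3 AhRfl/fl pairs climbed and KO pair 2 did not. With the block the rise was 0.40 ± 0.08 in AhRfl/fl cells (adjusted p = 0.0406 by edgeR) and 0.25 ± 0.05 on average (adjusted p = 0.0392), and in KO cells it was 0.10 ± 0.07 (adjusted p = 0.628). Between genotypes with PBS, Mki67 differed by 0.60 ± 0.26 (adjusted p = 0.58), with KO replicate 3 below AhRfl/fl replicate 3. Top2a, the topoisomerase that untangles chromosomes, was at 37.4, 39.3 and 65.5 CPM and 40.8, 53.6 and 80.6 CPM in AhRfl/fl cells with PBS and CRE, and at 86.6, 73.3 and 56.0 CPM and 93.2, 80.2 and 65.2 CPM in KO cells. It rose with CRE by 0.22 ± 0.05 with the block (adjusted p = 0.0433 by edgeR), and the genotypes differed by 0.60 ± 0.28 with PBS (adjusted p = 0.612), where only replicate 3 of each overlapped.

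Kif11, the motor that separates spindle poles, had the largest fitted response to CRE in AhRfl/fl cells, from 10.4, 9.57 and 14.4 to 12.0, 14.9 and 21.5 CPM, or 0.49 ± 0.25 (adjusted p = 0.587 by edgeR). In KO cells it went from 19.8, 20.9 and 14.0 to 25.5, 22.6 and 18.0 CPM. On average it rose by 0.38 ± 0.08 with the block (adjusted p = 0.0331), and the genotypes differed by 0.67 ± 0.25 with PBS (adjusted p = 0.511), where KO replicate 3 was just below AhRfl/fl replicate 3. Nusap1, which binds spindle microtubules, had the largest response in KO cells, from 12.5, 10.5 and 9.75 to 16.6, 16.8 and 13.0 CPM without overlap, or 0.50 ± 0.33 (adjusted p = 0.921). In AhRfl/fl cells it went from 5.30, 9.97 and 11.9 to 7.10, 10.4 and 16.2 CPM, and the average was 0.40 ± 0.23 without the block (adjusted p = 0.595) and 0.40 ± 0.08 with it (adjusted p = 0.0285). Birc5, survivin of the chromosomal passenger complex, was at 12.5, 14.1 and 19.8 CPM and 12.6, 13.3 and 22.1 CPM in AhRfl/fl cells with PBS and CRE, and at 23.6, 23.3 and 15.6 CPM and 26.5, 23.4 and 20.3 CPM in KO cells. With CRE the genotypes differed by 0.55 ± 0.26 (adjusted p = 0.848 by edgeR) and overlapped at replicate 3. Tpx2, a spindle assembly factor, was the other member besides Cdc6 whose genotypes did not overlap with PBS, at 23.5, 23.3 and 30.5 CPM against 37.6, 37.8 and 30.7, a difference of 0.46 ± 0.19 (adjusted p = 0.566) in which the nearest libraries were 30.5 and 30.7 CPM. Kif20a, Cenpe and Cenpf, which serve cytokinesis and the kinetochore, were higher in KO cells over both treatments by 0.49, 0.44 and 0.50 on the fitted log2 scale, with none called.

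Beyond the 41, 91 further cell cycle genes in 5 lists (kinase inhibitors, pocket proteins and E2F partners, G1 kinases and the p53 pathway, origin and fork proteins, and mitosis) gave 1 call by edgeR without the block in the 7 contrasts. Tfdp2, a DNA-binding partner of E2F, was lower with CRE, from 28.7, 30.0 and 27.4 to 12.4, 12.6 and 13.1 CPM in AhRfl/fl cells and from 21.2, 51.9 and 31.2 to 14.3, 16.8 and 14.2 CPM in KO cells. The groups did not overlap in either genotype, and it fell by 1.19 ± 0.18 log2 units averaged over genotypes (adjusted p = 0.00954), in the direction opposite to the members. With the block 11 of the 91 were called higher (3.47% of all genes were) and 2 lower (3.11%). The 11 were Cdkn1a, Mdm2, Ccng1, Orc1, Dbf4, Kif23, Cdca8, Anln, Ect2, Melk and Ncapg, and the 2 were Tfdp2 and the phosphatase Cdc25b. The 32 other mitosis genes resembled the members, with median log2 fold changes of 0.22 and 0.21 for CRE in AhRfl/fl and KO cells and of 0.37 and 0.38 between genotypes with PBS and CRE, and 6 of them were called higher with CRE under the block. The 26 origin and fork genes had 0.17 and 0.26 between genotypes, and the 15 pocket proteins and E2F partners 0.05 and 0.03. The 8 kinase inhibitors were mixed, with a median of -0.29 with PBS (2 higher and 6 lower in KO cells) and 0.23 with CRE (5 higher and 3 lower). Over both treatments their median was -0.04 (3 higher and 5 lower), with 0 called in any of these.

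Among these inhibitors Cdkn1a, which encodes p21 and is a target of p53, ran opposite to the members between genotypes, but not alone. With PBS 3 of the 8 inhibitors were lower in KO cells at an unadjusted p under 0.05 and 1 was higher (edgeR, 8.37% of all genes in either direction). The lowest log2 fold change among them was -1.03. Over the 12 libraries, log2 CPM correlated with the members' median relative level at -0.93 for Cdkn1b and -0.58 for Cdkn1a. Cdkn1a was at 1295, 1465 and 1347 CPM in AhRfl/fl cells with PBS and 1416, 1618 and 1461 with CRE, and at 898, 945 and 1273 CPM in KO cells with PBS and 1011, 1171 and 1533 with CRE. KO replicate 3, low in the members, was the high KO library for Cdkn1a, and with PBS the KO group lay wholly below the AhRfl/fl group. The difference with PBS was -0.40 ± 0.16 (adjusted p = 0.538 by edgeR) and over both treatments -0.34 ± 0.11 (adjusted p = 0.327), and did not pass. With CRE it rose in 6 of 6 pairs, by 0.19 ± 0.02 with the block (adjusted p = 0.00539). The p53 targets Mdm2 and Ccng1 rose with it, by 0.37 ± 0.04 (adjusted p = 0.00188) and 0.25 ± 0.03 (adjusted p = 0.0033). They were the 2 called in the list of 10 G1 kinases and p53 pathway genes, where Gadd45a stood at -0.09 ± 0.06 (adjusted p = 0.503) and Trp53 at 0.15 ± 0.06 (adjusted p = 0.202).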

How the data were processed

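RNA-seq was analysed from 12 libraries of cultured AT2 cells. Per the labels and the submitters' processing notes, the authors aligned reads with STAR 2.7.2b to GRCm38 (mm10), annotated them in Partek and took gene expression as a count per gene by Salmon, and the deposited counts are whole numbers that were not normalised. How they became whole numbers and the annotation release are not given in the sources used here. The deposited FPKM values follow these counts: for 98.62% of 12564 genes checked they equal the count times 1 gene and 1 library factor within 1%. Whether the gene factor is the gene length was not checked. Counting was not stated to use strand, and 21 of the 41 members overlap another gene.

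Groups came from the sample labels. Genes were filtered with filterByExpr at a minimum count of 10, leaving 20612, and tested with edgeR 4.0.16 under R 4.3.3 (TMM, quasi-likelihood, 1 fit of 4 group means, Benjamini-Hochberg adjustment over all genes, threshold 0.05), a procedure tested on simulated data. limma 3.58.1 used log2 CPM with a prior count of 2, and DESeq2 1.42.0 was an alternative. Shares given for DESeq2 are of all 32083 genes with a count in any library, and genes without an adjusted p count as not called. Numbers were taken to pair PBS and CRE libraries within a genotype. There every same-number correlation exceeded 0.1, with 0.377 the lowest, and the highest between different numbers was 0.116. Genotypes were not paired, since a same-number correlation was as low as -0.011 with CRE. Different numbers correlated across genotypes at up to 0.276 with PBS and 0.366 with CRE. Values are given in full for members called by a test or meeting the study's rule and for the largest rise and fall in each comparison, and further members such as Tpx2 were chosen after their values were seen. The 41 members and the gene lists were chosen with earlier results of these data known. Promoter sequences are from RefSeq, GRCm38.p6, and member positions from GENCODE M21. Tables were made with Python 3.11.15.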

Additional observations from a re-analysis of the deposited data

How the results depend on the processing

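No setting turned the members' median shift between genotypes below 0. With the replicate block within genotype, called members went from 0 to 1 for CRE in AhRfl/fl cells, from 0 to 1 in KO cells and from 0 to 12 averaged over genotypes, and no other call on the members changed with pairing within genotype. Across genotypes same-number libraries correlated at 0.108 to 0.470 with PBS and -0.011 to 0.412 with CRE and were not paired. A replicate block over all libraries gave 1 call over both treatments, Ccnd2, and 2 members by the study's rule with CRE. DESeq2 gave 1 called member between genotypes with PBS, 2 for CRE over both genotypes and 3 between genotypes over both treatments. Summing the libraries of a number left 8 members at an unadjusted p under 0.05. Leaving out each library in turn gave 0 to 1 called members between genotypes over both treatments, and by the study's rule 0 to 2 for CRE in AhRfl/fl cells, 1 to 16 between genotypes with PBS and 1 to 20 with CRE. The median with CRE then lay between 0.24 and 0.68, the latter without AhRfl/fl replicate 3. Leaving out both libraries of a number gave 1 to 9 members in the blocked fit, 0 to 2 called between genotypes and 6 to 33 at an unadjusted p under 0.05. Single members near 0 changed sign when 1 library was left out. Cdt1 between genotypes with PBS ranged from -0.30 to 0.0052, and Foxm1 in the difference of responses from -1.20 to 0.13. Tyms ranged from -0.27 to 0.092 between genotypes with CRE, from -0.17 to 0.0051 for CRE over both genotypes and from -0.063 to 0.12 between genotypes over both treatments. Of 294 alternative values for named members, 279 kept direction and call, 10 changed sign and 5 newly passed. The causes were not tested. Depth did not limit detection of any member, whereas 3 libraries per group limit the precision.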
